A study of Sus scrofa with 6 samples.

Results

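The genes described here are 10 receptors and intracellular mediators of the transforming growth factor β (TGFB) and bone morphogenetic protein (BMP) pathways in cultured porcine granulosa cells (GCs). They were set as a list of symbols by their place in the pathway, at a time when earlier results of these data were known, and comprise the type I receptors *TGFBR1*, *BMPR1A* and *BMPR1B*, the type II receptors *TGFBR2*, *BMPR2* and *ACVR2A*, the receptor-regulated SMADs *SMAD2* and *SMAD3*, the common SMAD *SMAD4* and the inhibitory SMAD *SMAD7*. All 10 were found among the 17950 genes of the deposited table through a table of Ensembl gene names, which gave a symbol to 10489 of them. GCs of Landrace pre-pubertal gilts, taken from aspirated follicles, were cultured for 24 h and then infected for 72 h with lentivirus made from the pLVX-IRES-ZsGreen vector. In the pLVX-*RBP4* group the vector carried the full-length porcine cDNA of *RBP4*, the plasma carrier of retinol, and in CTRL cells it was the blank vector, so that both groups carried the virus and its fluorescent protein. Each group had 3 libraries, described as biological triplicates. How many animals gave the cells, and whether their cells were pooled, was not found in the labels or the methods.

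TGFB family ligands act by bringing type II and type I receptors together at the cell surface. The type II receptor, an active kinase, phosphorylates the type I receptor, which in turn phosphorylates receptor-regulated SMADs. *SMAD2* and *SMAD3* serve the TGFB and activin branch, and *SMAD1*, *SMAD5* and *SMAD9* the BMP branch. Both branches use *SMAD4* as the partner that enters the nucleus with them, and *SMAD6* and *SMAD7* act back on the receptors as inhibitors. In the ovarian follicle, GCs receive oocyte ligands such as *GDF9* and *BMP15* as well as activins, inhibins and BMPs, and the pathway is known for its part in GC proliferation, steroid production and follicle growth.

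The authors' table holds 1 FPKM value per gene and group (fragments scaled to transcript length and to the mapped fragments of a library), made with Cuffdiff over the libraries of a group. This unit is per length, so levels of different genes can be set side by side only as far as the annotated transcript lengths are right. The table does not hold the spread between the 3 libraries, so no test of a difference could be made. The number of fragments behind a gene's value is not in the table either, so no counting interval is given. The study lists mapped reads per library, and each pLVX-*RBP4* library had more of them than any CTRL library. A change is given below as the pLVX-*RBP4* value minus the CTRL value on the log2(FPKM + 1) scale, which understates the change of weakly expressed genes. Of the 17950 genes, 12382 averaged 1 FPKM or more over the groups and were used as the background, and all 10 receptors and SMADs were among them. The columns of values are headed C and R and were taken as CTRL and pLVX-*RBP4* from these initials. The overexpressed gene *RBP4* had 1.10 FPKM in the column taken as CTRL and 92.3 FPKM in that taken as pLVX-*RBP4*.

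Among the GC markers, *CYP11A1*, the cholesterol side-chain cleavage enzyme, had 672.9 and 669.4 FPKM in the CTRL and pLVX-*RBP4* groups. *NR5A1* had 31.1 and 28.1 FPKM (-0.14), *INHA* 28.6 and 27.5 FPKM (-0.05) and *FSHR* 9.99 and 8.47 FPKM (-0.21), while *AMHR2* was near the background limit with 1.22 FPKM in CTRL cells. Of these 5 GC markers 4 were lower in pLVX-*RBP4* cells, including *CYP11A1* at -0.01, where 49.8% of the background genes were lower. They summed to 743.8 and 734.6 FPKM. The other 5 of the 10 listed GC markers, including *FOXL2* and *CYP19A1*, were not matched by symbol. Markers of other cell types were also measured. The 5 stroma markers found of 6 listed (*ACTA2*, *DCN*, *COL1A2*, *LUM* and *PDGFRA*) summed to 893.6 FPKM in CTRL cells and 989.3 FPKM in pLVX-*RBP4* cells. Most of this sum was *ACTA2*, with 644.1 and 687.8 FPKM. *PDGFRA* was lower in pLVX-*RBP4* cells (-0.16) and the other 4 were higher, where 50.2% of the background genes were higher. *LUM* had the largest change of the 5, with 6.82 and 9.10 FPKM (0.37). Counts of so few markers are no result about cell types. The 3 leukocyte markers found of 5 summed to 47.2 and 53.7 FPKM, most of it *CD14*, and *PTPRC*, which defines leukocytes, had 0.229 and 0.166 FPKM. The 2 endothelial markers found of 5, *PECAM1* and *KDR*, summed to 19.9 and 19.0 FPKM. The 2 theca markers found of 4 summed to 0.209 and 0.386 FPKM, with *INSL3* listed at 0 in CTRL cells. Of the 5 oocyte markers only *GDF9* was found, with 3.36 and 3.51 FPKM. The part of other cells in the values below was not tested. In bulk RNA, fewer cells of a type and less RNA per cell cannot be told apart.

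All 10 genes were measured in both groups, from 2.98 to 48.8 FPKM in CTRL cells, and in none did the higher value, with 1 FPKM added to both, exceed the lower one by 25% or more (a distance of 0.32 on the log2(FPKM + 1) scale, called the 25% limit below). *SMAD3* had the highest level of the 10 and the largest difference, 48.8 FPKM in CTRL cells against 39.9 FPKM in pLVX-*RBP4* cells (log2 fold change -0.28). *BMPR2* followed with 10.2 and 8.86 FPKM (-0.18). Of the 10 genes, 6 were higher and 4 were lower in pLVX-*RBP4* cells, where 50.2% of the 12382 background genes were higher. The 25% limit was passed by 0 of the 10 genes and by 12.4% of the background genes. The median log2 fold change of the 10 genes was 0.03, against 0.0014 for all background genes, and their median absolute change was 0.077 against 0.13. The count of higher genes is near the background share and is no result about these genes.

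**Figure D1:**
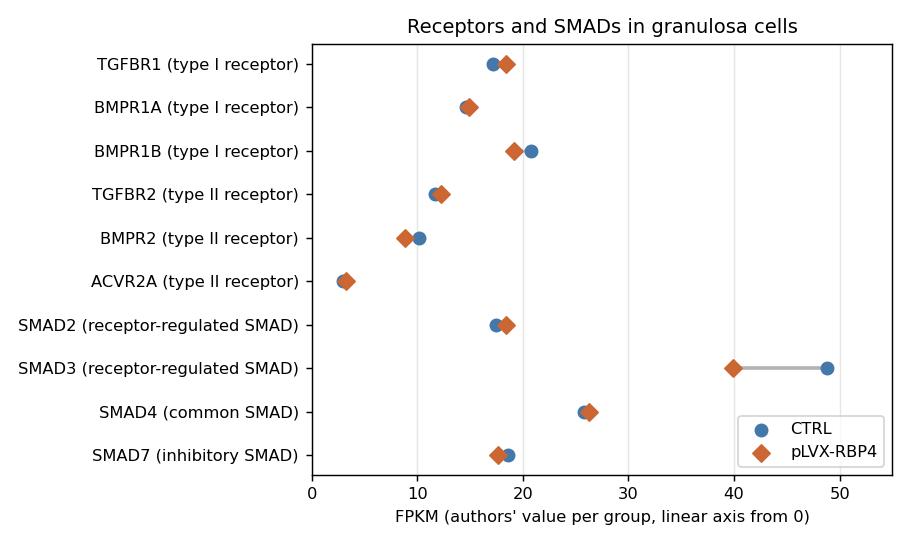
FPKM of the 10 genes in CTRL cells (circles) and the pLVX-RBP4 group (diamonds), 1 value per group made by the authors from 3 libraries, with a grey line between both values. SMAD3 shows the widest gap, 48.8 against 39.9 FPKM, while the values of most other genes nearly touch.

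The levels of the 10 genes ran in a similar order in both groups. In the CTRL group *SMAD3* (48.8 FPKM) was followed by *SMAD4* (25.8), *BMPR1B* (20.7), *SMAD7* (18.5), *SMAD2* (17.5), *TGFBR1* (17.1), *BMPR1A* (14.6), *TGFBR2* (11.7), *BMPR2* (10.2) and *ACVR2A* (2.98). In the pLVX-*RBP4* group *SMAD7* stood at rank 6 in place of rank 4, behind *SMAD2* and *TGFBR1*, and the other ranks below and above this trio were as in CTRL cells. The trio lay between 17.1 and 18.5 FPKM in CTRL cells and between 17.6 and 18.4 FPKM in pLVX-*RBP4* cells. Without values per library, it cannot be said which neighbours in this order differ beyond their spread. Against the background genes, *SMAD3* stood at percentile 83.0 of expression in CTRL cells and *ACVR2A* at percentile 15.3, with the other 8 genes between percentiles 44.9 and 70.5.

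Type I receptors pass the signal on to the SMADs, and of the 3 described here *BMPR1B* had the lower value in pLVX-*RBP4* cells while *TGFBR1* and *BMPR1A* had the higher one. *TGFBR1*, the type I receptor for TGFB itself, had 17.1 FPKM in CTRL cells and 18.4 FPKM in pLVX-*RBP4* cells, the largest difference upward among the 10 genes on the log2(FPKM + 1) scale at 0.10. *BMPR1A* had 14.6 and 14.9 FPKM (0.03). Both BMP type I receptors bind BMPs and signal to the BMP branch, and *BMPR1B*, which is known for its role in ovulation rate, had 20.7 and 19.2 FPKM (-0.11). The level of *BMPR1B* was 1.42 times that of *BMPR1A* in CTRL cells and 1.29 times in pLVX-*RBP4* cells. These differences are small beside the background, since 61.5% of the background genes differed at least as far as *TGFBR1*, 87.3% as far as *BMPR1A* and 58.1% as far as *BMPR1B*.

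The remaining type I receptors were measured as part of a list of 6 other receptors. *ACVR1*, a BMP type I receptor, had the highest level of all type I receptors, 44.2 FPKM in CTRL cells and 39.1 FPKM in pLVX-*RBP4* cells (-0.17). *ACVR1B*, the activin type I receptor, had 25.2 and 24.3 FPKM (-0.05). *ACVRL1*, best known from endothelial cells, was below the background limit with 0.309 and 0.119 FPKM, and *ACVR1C* was listed at 0 in CTRL cells and at 0.0522 FPKM in pLVX-*RBP4* cells. Summed over all 7 type I receptors, the level was 122.1 and 116.1 FPKM. *TGFBR1* made up 14.0% of this sum in CTRL cells and 15.8% in pLVX-*RBP4* cells, *BMPR1A* 11.9% and 12.8%, and *BMPR1B* 17.0% and 16.5%.

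*BMPR2* and *TGFBR2* were the main type II receptors, the kinases that start the relay, and their values differed in opposite directions. *BMPR2*, used by BMPs and by *GDF9* and *BMP15*, had 10.2 FPKM in CTRL cells and 8.86 FPKM in pLVX-*RBP4* cells, a ratio of 0.871. *TGFBR2*, the type II receptor for TGFB, had 11.7 and 12.3 FPKM, a ratio of 1.05 and a log2 fold change of 0.07. The level of *TGFBR2* was thus 1.15 times that of *BMPR2* in CTRL cells and 1.39 times in pLVX-*RBP4* cells. *ACVR2A*, which binds activins, was the weakest of the 10 genes with 2.98 and 3.21 FPKM (0.08). Its relative *ACVR2B* had 2.11 and 1.62 FPKM (-0.25), and *AMHR2*, the receptor for anti-Müllerian hormone, had 1.22 FPKM in CTRL cells (0.02). Of the background genes, 35.3% differed at least as far as *BMPR2*, 73.0% as far as *TGFBR2* and 66.4% as far as *ACVR2A*.

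Within the summed level of the 5 type II receptors, 28.1 and 27.2 FPKM, the share of *BMPR2* was 36.1% in CTRL cells and 32.5% in pLVX-*RBP4* cells, and that of *TGFBR2* 41.5% and 45.1%. *ACVR2A* held 10.6% and 11.8%, and *ACVR2B* 7.48% and 5.94%. Such shares do not depend on how the groups are scaled, because each is taken within 1 group. The 6 receptors described here summed to 77.3 FPKM in CTRL cells and 76.8 FPKM in pLVX-*RBP4* cells.

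**Figure D2:**
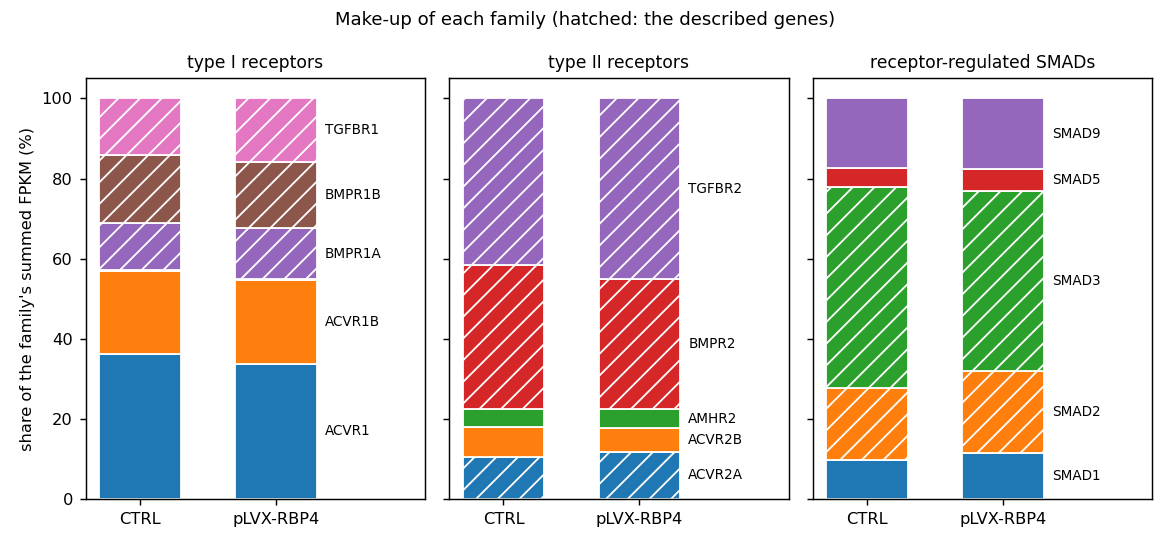
Share of each gene (%) in the summed FPKM of the type I receptors, the type II receptors and the receptor-regulated SMADs, by group, with the genes described here hatched. The share of SMAD3 was 50.1% in CTRL cells and 44.8% in pLVX-RBP4 cells, and that of BMPR2 was 36.1% and 32.5%.

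*SMAD3* and *SMAD2*, which carry the TGFB and activin signal, differed in direction. *SMAD3* had 48.8 FPKM in CTRL cells and 39.9 FPKM in pLVX-*RBP4* cells, a difference of -8.83 FPKM and a ratio of 0.819. *SMAD2* had 17.5 and 18.4 FPKM, a ratio of 1.05 and a log2 fold change of 0.07. The level of *SMAD3* was 2.79 times that of *SMAD2* in CTRL cells and 2.17 times in pLVX-*RBP4* cells, which is a difference of -0.36 in the log2 ratio of both genes. On the log2(FPKM + 1) scale 16.9% of the background genes (2097 of 12382) differed at least as far as *SMAD3*, and 71.5% as far as *SMAD2*. *SMAD3* was the nearest of the 10 genes to the 25% limit, and *BMPR2* was the next.

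*SMAD3* held the largest share of its class. The 5 receptor-regulated SMADs summed to 97.3 FPKM in CTRL cells and 89.3 FPKM in pLVX-*RBP4* cells. *SMAD2* and *SMAD3* together had 66.3 and 58.4 FPKM (ratio 0.881), and *SMAD1*, *SMAD5* and *SMAD9* of the BMP branch had 31.0 and 30.9 FPKM (ratio 0.995). Within the latter, *SMAD1* had 9.43 and 10.2 FPKM, *SMAD9* 16.8 and 15.7 FPKM and *SMAD5* 4.82 and 5.04 FPKM. The share of *SMAD3* in the class was 50.1% in CTRL cells and 44.8% in pLVX-*RBP4* cells, and that of *SMAD2* was 18.0% and 20.6%.

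*SMAD4*, the shared partner of both branches, was nearly level between the groups, with 25.8 and 26.3 FPKM (0.03), and 89.6% of the background genes differed at least as far. Its level was 0.529 of that of *SMAD3* in CTRL cells and 0.657 in pLVX-*RBP4* cells. *SMAD7*, which blocks type I receptors and recruits ubiquitin ligases to them, had 18.5 and 17.6 FPKM (-0.07). The related inhibitor *SMAD6* was far more abundant, with 74.0 and 77.0 FPKM (0.06), and its level was 3.99 times that of *SMAD7* in CTRL cells and 4.37 times in pLVX-*RBP4* cells. The 4 SMADs described here summed to 110.6 and 102.3 FPKM.

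Several of these genes are neighbours in the genome. In the gene order of RefSeq on Sscrofa11.1, which is a later build than the Sscrofa10.2 used for the values and served here for order only, *SMAD3* and *SMAD6* have no protein-coding gene between them (0 genes), *SMAD2* and *SMAD7* have 2, and *SMAD7* and *SMAD4* have 13. As deposited, *SMAD3* was lower in pLVX-*RBP4* cells (-0.28) and *SMAD6* higher (0.06), and *SMAD7* was lower (-0.07) between *SMAD2* (0.07) and *SMAD4* (0.03), which were higher.

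**Figure D3:**
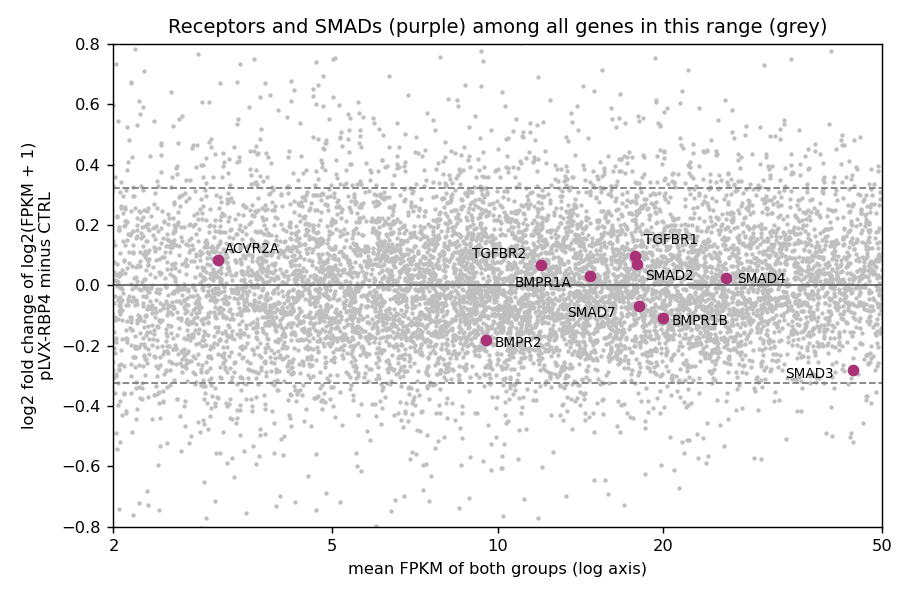
Log2 fold change (pLVX-RBP4 minus CTRL, log2(FPKM + 1) scale) against the mean FPKM of both groups (log axis) for the 10 genes (purple) and all genes between 2 and 50 FPKM (grey), with dashed lines at the 25% limit of 0.32 and 118 of the 9189 genes outside the vertical range. The 10 genes lie inside the dashed lines, and SMAD3 is the closest to them.

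The differences of the 10 genes lay within the bulk of the background. The middle 50% of the background genes ran from -0.12 to 0.14 on the log2(FPKM + 1) scale and held 8 of the 10 genes, all but *SMAD3* and *BMPR2*. The middle 90%, from -0.33 to 0.37, held all 10. For the 9189 genes between 2 and 50 FPKM, the range in which the 10 genes lie, the median absolute change was 0.13.

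The direction of the small differences depended on how the groups were scaled. The summed FPKM was 1129669 in CTRL cells and 1068962 in pLVX-*RBP4* cells, and a single gene without a symbol took 35.4% and 25.8% of it. As deposited, and after either the median or the upper quartile of the groups was made equal, 6 of the 10 genes were higher. After rescaling to a common sum, *SMAD7* was higher too (7 of 10), and 64.9% of the background genes were higher. When the common sum left out that single gene, 0 of the 10 genes and 30.1% of the background genes were higher. The median of all background genes then shifted by -0.11. *SMAD3* went from -0.28 to -0.40 and so past the 25% limit, but the share of background genes past it under this scaling was not computed. *SMAD3*, *BMPR2* and *BMPR1B* were lower in pLVX-*RBP4* cells under each of the 5 scalings, *BMPR1B* by only -0.03 after rescaling to a common sum. Each scaling applies 1 common factor to all genes, which raised pLVX-*RBP4* values against CTRL by at most 0.08 in log2. The kept sign of these genes therefore follows from their deposited values and says nothing about the spread between libraries.

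**Figure D4:**
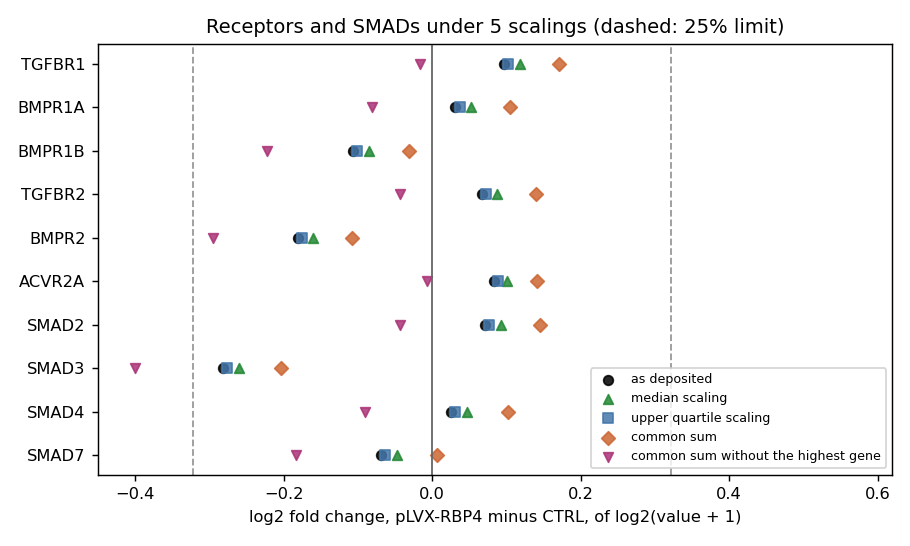
Log2 fold change of the 10 genes (pLVX-RBP4 minus CTRL, log2(value + 1) scale) as deposited and under 4 other scalings, with dashed lines at the 25% limit of 0.32. SMAD3, BMPR2 and BMPR1B stay left of 0 under each scaling, while the other 7 genes cross 0 under at least 1 of them. Each scaling applies 1 common factor to all genes, so the kept sign follows from the deposited values.

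The other genes of the pathway were taken from 7 lists (other receptors, co-receptors, other SMADs, SMAD regulators, target genes, secreted antagonists and ligands). Of their 80 genes, 56 were matched by symbol and 50 passed the background limit. Of these 50 genes, 22 were higher and 28 lower in pLVX-*RBP4* cells, and their median change was -0.01, where 50.2% of the background genes were higher, and 2 passed the 25% limit, against 12.4% of the background genes. The split depended on the scaling, with 26 of the 50 higher once the medians were made equal, 33 after rescaling to a common sum and 12 when that sum left out the most abundant gene. The counts per list below are as deposited, and with so few genes per list they are no result about a list.

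Of the 5 co-receptors and decoys measured, which present ligands to the receptors or hold them off, 2 were higher and 3 lower. The background share of higher genes was 50.2%. *ENG* (endoglin) had 10.5 FPKM in CTRL cells and 8.39 FPKM in pLVX-*RBP4* cells (-0.29), and *TGFBR3* (betaglycan) 2.30 and 1.92 FPKM (-0.17). *BAMBI*, a pseudoreceptor that lacks the kinase, had 8.20 and 7.49 FPKM (-0.12). The BMP co-receptors *RGMB* and *RGMA* had higher values, 2.84 and 3.21 FPKM (0.13) and 0.941 and 1.24 FPKM (0.21). Since *ENG* is also abundant in endothelial cells, the endothelial markers are given again, and *PECAM1* had 16.3 and 16.0 FPKM and *KDR* 3.55 and 3.03 FPKM. Their part in the value of *ENG* was not tested.

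Among the 11 regulators of SMAD activity above the limit, 5 were higher and 6 lower, near the background share of 50.2%, with a median of -0.01. *STRAP*, which binds *SMAD7* and the TGFB receptors, had 63.4 and 81.9 FPKM (0.36). It was the only regulator past the 25% limit, which 12.4% of the background genes passed. *USP15*, a deubiquitinase that acts on the TGFB pathway, had 5.41 and 6.74 FPKM (0.27). *NEDD4L*, a ubiquitin ligase for *SMAD2* and *SMAD3*, had 8.80 and 7.44 FPKM (-0.22). *PPM1A*, a SMAD phosphatase, had 31.2 and 34.0 FPKM (0.12), and the corepressor *TGIF1* 54.0 and 56.4 FPKM (0.06). The deposited values hold RNA levels, and phosphorylation of SMADs was not measured.

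Of the 17 target genes above the limit, 8 were higher and 9 lower as deposited, near the background share of 50.2%, with a median of -0.01. The 25% limit was passed by 0 of them and by 12.4% of the background genes, and with so few genes this is no result. *CCN2* (connective tissue growth factor) was abundant, with 3034 FPKM in CTRL cells and 2896 FPKM in pLVX-*RBP4* cells (-0.07). *CCN1* had 429.6 and 427.2 FPKM (-0.01). *ID2*, an inhibitor of DNA binding known as a BMP target, had 70.6 and 78.9 FPKM (0.16), and *ATOH8* 2.05 and 2.43 FPKM (0.17). The collagen gene *COL1A2* had 61.5 and 71.1 FPKM (0.21) and is also in the list of stroma markers given above. The targets *ID1* and *ID3* were not matched by symbol.

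Outside the cell, 3 of the 6 secreted antagonists and binding proteins above the limit were higher and 3 lower, near the background share of 50.2%. *FST* (follistatin), which binds activin, had 20.5 and 24.7 FPKM (0.26). *DCN* (decorin), which binds TGFB and is also a stroma marker, had 168.6 and 210.1 FPKM (0.32), just under the 25% limit. *LTBP3*, a latent TGFB binding protein, had 41.2 and 33.5 FPKM (-0.29), and *NBL1*, a BMP antagonist, 1014 and 951.2 FPKM (-0.09). Of the 7 ligands above the limit, 3 were higher and 4 lower, where 50.2% of the background genes were higher. *TGFB2* had 5.96 and 4.15 FPKM (-0.44) and was past the 25% limit, and *TGFB1* had 62.4 and 53.6 FPKM (-0.22). *BMP6* and *BMP4* had 61.2 and 66.0 FPKM (0.11) and 15.1 and 16.9 FPKM (0.14), and *INHA*, the inhibin α subunit, 28.6 and 27.5 FPKM (-0.05).

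**Figure D5:**
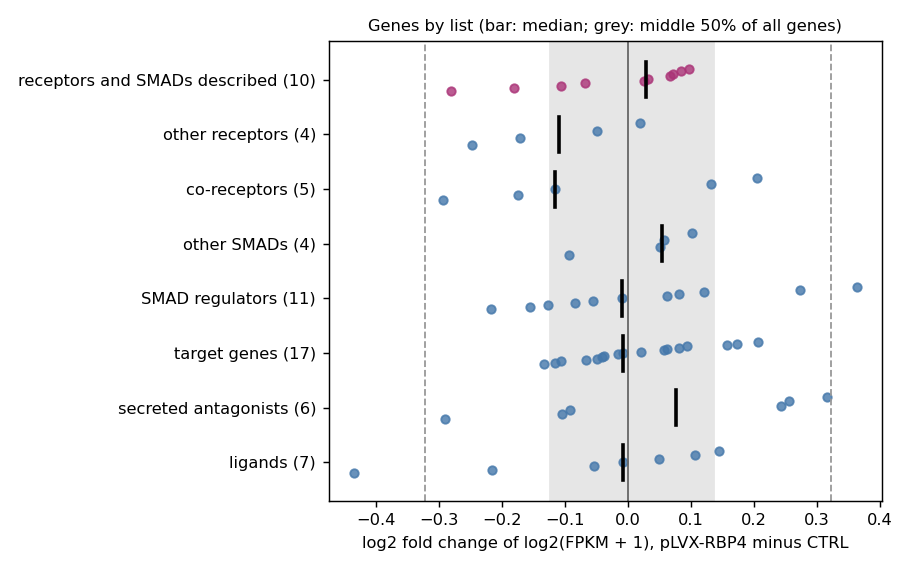
Log2 fold change (pLVX-RBP4 minus CTRL, log2(FPKM + 1) scale) of each gene above 1 FPKM in the list described here and in 7 pathway lists, with the number of genes in brackets, the median as a bar, the middle 50% of all genes in grey and dashed lines at the 25% limit of 0.32. STRAP (0.36) and TGFB2 (-0.44) are the 2 points outside the dashed lines.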

How the data were processed

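RNA from 3 pLVX-*RBP4* and 3 CTRL libraries was sequenced with paired-end reads on an Illumina instrument. According to the methods, the filtered reads were mapped by TopHat2 against Sscrofa10.2, the build that the labels also name, and groups were compared by Cuffdiff. Tool versions and the annotation release are not given in the sources used here. The authors deposited FPKM values, 1 per gene and group. Both columns of values were used, and 0 were left out. A linear model (limma) had been planned for values per library and could not be fitted. The log2(FPKM + 1) difference was computed for all genes. Its code was checked on CTRL values multiplied by known factors. That check holds no noise between libraries and says nothing about the precision of the differences given here. Counts use genes that average 1 FPKM or more. A gene was called apart when the higher value + 1 was 25% above the lower value + 1. Alternatives were pseudocounts of 0.1 and 0.01, no pseudocount (chosen after seeing the data), no filter, a mean FPKM of at least 5, a fold of 1.5 and 4 scalings. The fragments behind each value are not in the deposited table, which limits the precision that can be stated. From each pathway list, the 3 most abundant genes and the 3 with the largest change were named, except 1 target gene that is not reported here. Other genes named, such as those near 0, *AMHR2*, *SMAD5* and the markers, are given to complete a family or a list. *CTGF* and *CYR61* were matched as *CCN2* and *CCN1*. The genes and lists were chosen with earlier results of these data known. Python 3.11.15, numpy 2.4.6, pandas 2.3.3 and matplotlib 3.10.9 were used.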

Additional observations from a re-analysis of the deposited data

How the results depend on the processing

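With the common sum that leaves out the most abundant gene, the median log2 fold change of the 10 genes was -0.086, and 0 of 10 were higher. The 25% limit was then passed by 1 gene (*SMAD3*). The share of background genes past that limit under this scaling was not computed, so this count is no result about *SMAD3*. Of the 50 other pathway genes 12 were higher, where 30.1% of the background genes were higher under this scaling. By construction this scaling lowers each pLVX-*RBP4* value relative to its CTRL value by the same factor, 0.12 in log2. Under the other alternatives the median of the 10 genes stayed within 0.1 of its value and the counts within 1.5 times. With 0 of the 10 genes past the 25% limit as deposited, 0 could be 1.5-fold apart. The largest count of higher pathway genes was 33 of 50, after rescaling to a common sum with that gene included. Of 89 values of single genes under the alternatives, 80 differed by less than 0.1 from the value as deposited and 9 by up to 0.12, a limit used because the spread between libraries is not known. With a mean FPKM of at least 5, *ACVR2A* drops out. No paired analysis was possible because the table holds 1 value per group, and for the same reason no replicate could be left out in turn.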

Other observations

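The log2 ratio between genes of the same group does not depend on scaling. Over the 45 pairs of the 10 genes, its shift from CTRL to pLVX-*RBP4* cells had a median size of 0.15. The 6 largest all involved *SMAD3*, up to 0.40 against *ACVR2A* and 0.39 against *TGFBR1*, and the next, 0.31, was *BMPR2* against *ACVR2A*. A shift of a pair is the difference between the log2 ratios of its genes, so the pairs are not independent. That *SMAD3* and *BMPR2* lead follows from their own differences given above. Among the 28 pairs without *SMAD3* and *BMPR2* the largest was 0.22, for *BMPR1B* and *ACVR2A*. These pairs were picked after their values were seen, and with 1 value per group none was tested.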
